A study of Mus musculus with 8 samples.

Results

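Basement membranes are thin sheets of extracellular matrix built on 2 networks, one of laminin and one of collagen IV, which nidogens and the proteoglycan perlecan link together. Laminin-111, a trimer of one chain from each of Lama1, Lamb1 and Lamc1, and the collagen IV trimer of Col4a1 and Col4a2 chains are among the first matrix molecules that the early mouse embryo makes, and the primitive and parietal endoderm secrete them in bulk. Mouse embryonic stem cells (ESCs) also transcribe these genes.

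The 10 genes described here are Col4a1 and Col4a2 (collagen IV chains), Lama1, Lamb1 and Lamc1 (laminin chains), Nid1 and Nid2 (nidogens), Hspg2 (perlecan), Sparc (a collagen-binding glycoprotein) and Fn1 (fibronectin). They are 10 of the 24542 gene symbols in the tables, and all 10 have reads in all 8 samples. The group was chosen by the allele share of Col4a2, which had shifted to the Cast allele in both knockout clones, so the genotype difference of Col4a2 is described below without a test, while the other 9 genes were taken as its matrix partners.

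The samples are RNA-seq libraries of TX1072, a female ESC line from a cross of Mus musculus castaneus (Cast) and C57BL/6 (B6) in which doxycycline (DOX) switches on Xist from the B6 X chromosome. The groups are Hdac3+/+ cells without DOX (0 hr), Hdac3+/+ cells after 24 hr of DOX at 1 µg/ml, and Hdac3-/- cells at the same times, with 2 samples in each of the 4 groups. The Hdac3+/+ samples are duplicates of the line and the Hdac3-/- samples come from 2 clones made from it with CRISPR, whose numbers the labels do not tie to a clone, so that a genotype difference cannot be told apart from what the clones share by descent. All cells were grown on gelatin, without feeder cells, in serum with LIF and the 2 kinase inhibitors of 2i medium. The DOX comparison has no DOX-treated line lacking inducible Xist, so that the drug and Xist cannot be told apart.

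Libraries held 6940375 to 17125156 reads on genes, of which 30.1% to 31.6% were assigned to an allele. Hdac3, the deleted gene, had 38.0 to 42.8 CPM (reads on the gene relative to library size, scaled by TMM, a normalization of library composition) in the 4 Hdac3+/+ samples and 5.55 to 7.44 in the 4 Hdac3-/- samples, so that every library matched its label. Levels are given as TMM-scaled CPM where a gene is compared between samples and as TPM (reads per exon length, scaled to the same total in each library) where genes are compared with each other. The allele share is the d-score, B6 reads over B6 plus Cast reads, which is 0.5 for equal expression. Over the 9595 genes that reached 10 allelic reads in all 8 samples, the mean d-score of the Hdac3+/+ samples had a median of 0.502, a 5th percentile of 0.300 and a 95th percentile of 0.687.

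Col4a1 and Col4a2 lie head to head on chromosome 8 (mm10). Col4a1 spans chr8:11198423-11312826 on the minus strand and Col4a2 spans chr8:11312805-11449287 on the plus strand, and their annotated starts, at 11312826 and 11312805, overlap. The 2 promoter windows from RefSeq (GRCm38.p6, 250 bases before to 50 after each start) therefore share 78 bases. They are printed because the allele shares of both genes moved together and the genes start in the same stretch of DNA. Capitals mark GC boxes (GGGCGG) and CCAAT boxes (CCAAT), in either orientation, and each window is written along its own gene.
Col4a1, chr8:11312777-11313076, minus strand: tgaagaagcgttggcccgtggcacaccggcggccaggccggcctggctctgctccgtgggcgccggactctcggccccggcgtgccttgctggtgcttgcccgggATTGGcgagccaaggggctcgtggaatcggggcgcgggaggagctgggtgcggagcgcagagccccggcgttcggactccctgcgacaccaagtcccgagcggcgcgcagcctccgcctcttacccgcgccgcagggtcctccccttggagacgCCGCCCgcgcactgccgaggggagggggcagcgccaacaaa
Col4a2, chr8:11312555-11312854, plus strand: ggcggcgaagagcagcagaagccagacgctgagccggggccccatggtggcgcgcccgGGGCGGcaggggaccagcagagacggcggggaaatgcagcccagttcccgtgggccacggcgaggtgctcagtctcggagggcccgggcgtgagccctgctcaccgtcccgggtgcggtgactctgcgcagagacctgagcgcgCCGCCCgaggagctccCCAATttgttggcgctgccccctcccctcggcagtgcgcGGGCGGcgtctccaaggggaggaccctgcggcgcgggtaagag
The GC box at chr8:11312812-11312817 lies in both windows, at bases 260 to 265 of the Col4a1 window and 258 to 263 of the Col4a2 window. The Col4a2 window holds 2 more GC boxes, and each window holds 1 CCAAT box of its own. Among 32851 promoter windows of this length, 35.7% hold a GC box and 37.4% a CCAAT box. Neither window holds TATAAA (13.6% of windows), CACGTG (7.15%) or TGACTCA (5.20%). The windows count 37 and 33 CG pairs against a median of 7, and 74.0% and 73.7% of their bases are G or C. RefSeq promoter entries were matched for 6 of the 10 genes (Col4a1, Col4a2, Hspg2, Sparc, Lamb1 and Nid1).

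The collagen IV pair shifted strongly toward the Cast allele. In the Hdac3+/+ samples, the d-score of Col4a1 was 0.297 and 0.274 without DOX, then 0.259 and 0.245 after 24 hr. In the Hdac3-/- samples, it was 0.0732 and 0.0650, then 0.0688 and 0.0699. All 4 knockout values thus lie far below all 4 Hdac3+/+ values, and the exact 95% binomial intervals, which cover counting error only, do not touch (lowest Hdac3+/+ bound 0.177, highest Hdac3-/- bound 0.111). At 0 hr, the B6:Cast ratio of Col4a1 was lower in Hdac3-/-, with a log2 difference of -2.41 ± 0.20 (SE) and an adjusted p of 6.88e-06 (edgeR quasi-likelihood test, adjusted over 9595 genes). Col4a1 passed the test under all 15 alternative settings and fits without 1 sample, with log2 differences from -2.53 to -2.31 and an adjusted p of at most 0.00295. This test uses the same samples as the choice of Col4a2 and a gene that shares its start, and so it is no independent support for the shift of Col4a2.

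Col4a2 itself had d-scores of 0.340 and 0.371 in Hdac3+/+ cells without DOX, then 0.383 and 0.442 after 24 hr. In Hdac3-/- cells it had 0.115 and 0.118, then 0.142 and 0.133, on 52 to 295 allelic reads a sample. The log2 difference at 0 hr was -2.04 ± 0.27 (SE), which is given as a description since it chose the genes. Both chains favoured the Cast allele before any deletion, with Col4a1 lower than Col4a2 in each of the 4 Hdac3+/+ samples. Their Hdac3+/+ means, 0.269 and 0.384, were above those of 3.56% and 12.3% of all genes.

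**Figure D1:**
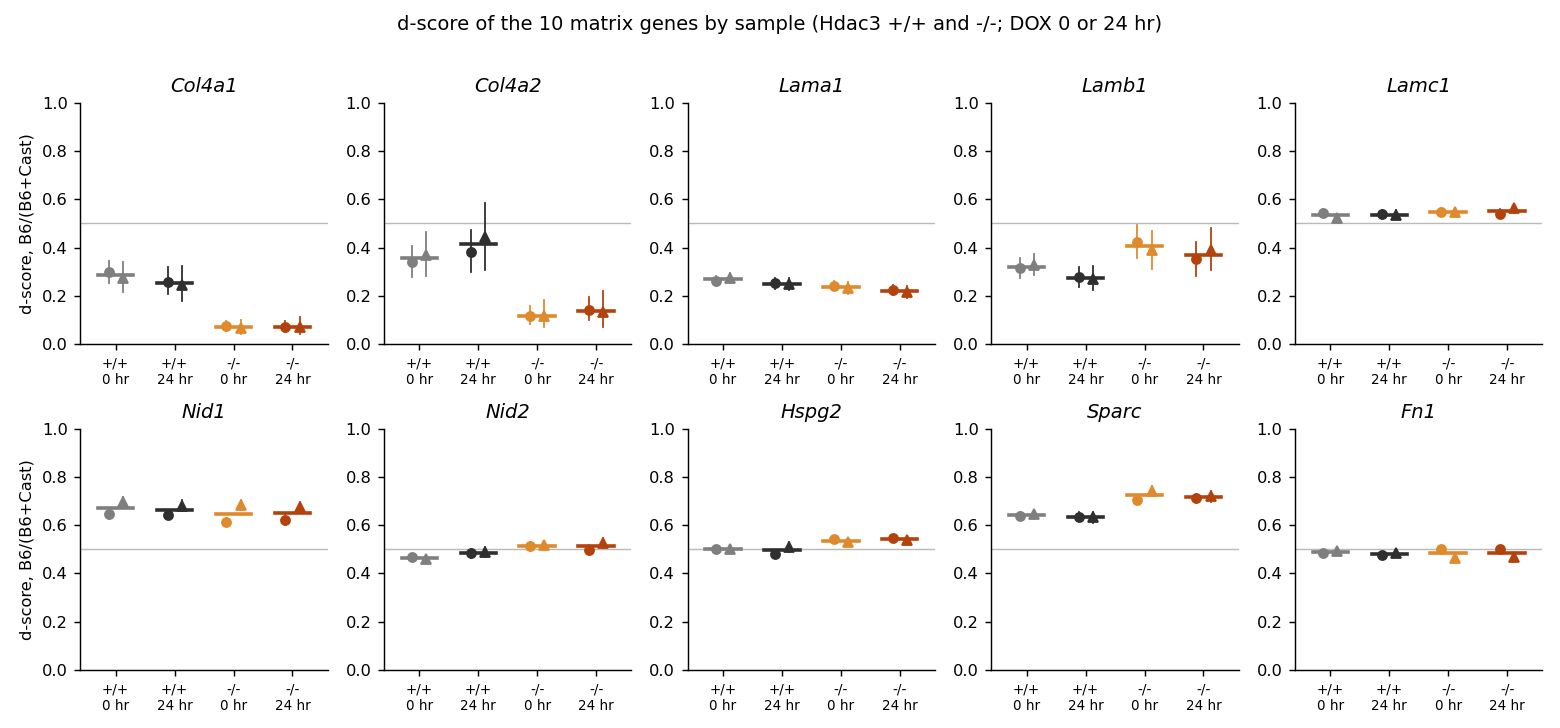
d-score, B6/(B6+Cast), of the 10 genes in every sample (points; circles are samples numbered 1 and triangles samples numbered 2), with the exact 95% binomial interval (thin bars) and the group mean of 2 samples (thick lines), by genotype and hours of DOX. Col4a1 falls from 0.245 to 0.297 in Hdac3+/+ to 0.0650 to 0.0732 in Hdac3-/-, Col4a2 is likewise lower, Sparc is higher, and the grey line marks 0.5.

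On the B6 allele the collagen IV pair had fewer reads in Hdac3-/-, and on the Cast allele more, so that the total differed less than either allele. In CPM, the B6 reads of Col4a1 came to 8.61 and 4.81 in Hdac3+/+ against 3.11 and 1.80 in Hdac3-/- cells without DOX. Cast reads of Col4a1 were 20.4 and 12.8 in Hdac3+/+ against 39.3 and 25.8 in Hdac3-/-. The Hdac3-/- mean was thus 0.365 times the Hdac3+/+ mean on the B6 allele and 1.97 times on the Cast allele, and over both times the samples of the genotypes did not overlap on either allele. For Col4a2, the same ratios were 0.377 on the B6 allele and 1.55 on the Cast allele at 0 hr, and 0.481 and 2.02 at 24 hr. The Cast reads of Col4a2 overlapped between the genotypes (4.13 to 10.6 against 7.85 to 16.5 CPM over both times), and its B6 reads did not (3.27 to 5.47 against 1.21 to 2.73). In bulk RNA, fewer cells that use an allele and less RNA from it in each cell cannot be told apart.

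The total level of Col4a1 did not pass the test, and that of Col4a2 was not tested. Col4a1 had 53.2 and 33.9 CPM in Hdac3+/+ at 0 hr, then 48.5 and 35.6 at 24 hr. In the Hdac3-/- samples it was 73.4 and 48.3, then 77.4 and 45.4. The genotypes thus overlapped. Its log2 fold change at 0 hr was 0.49 ± 0.25 (SE; edgeR adjusted p = 0.230). Single samples moved this value strongly, to 0.84 or 0.19 without Hdac3+/+ sample 1 or 2 at 0 hr. Without Hdac3-/- sample 1 or 2 it moved to 0.15 or 0.75. Omitting the low-count filter gave 0.49 with an adjusted p of 0.00560. Col4a2 had 25.1 and 18.5 CPM in Hdac3+/+ at 0 hr, then 24.7 and 14.4 at 24 hr. Hdac3-/- samples had 31.6 and 19.6 before and 36.4 and 18.3 after DOX. The sample numbered 1 exceeded the sample numbered 2 for both genes in all 4 groups, and what the number stands for was not tested. The TPM ratio of Col4a1 to Col4a2, whose chains join as 2 of the first to 1 of the second in the trimer, was 1.88 and 1.63 in the Hdac3+/+ samples and 2.06 and 2.19 in the Hdac3-/- samples at 0 hr. At 24 hr it was 1.74 and 2.20 against 1.89 and 2.20, so that the genotypes overlapped.

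**Figure D2:**
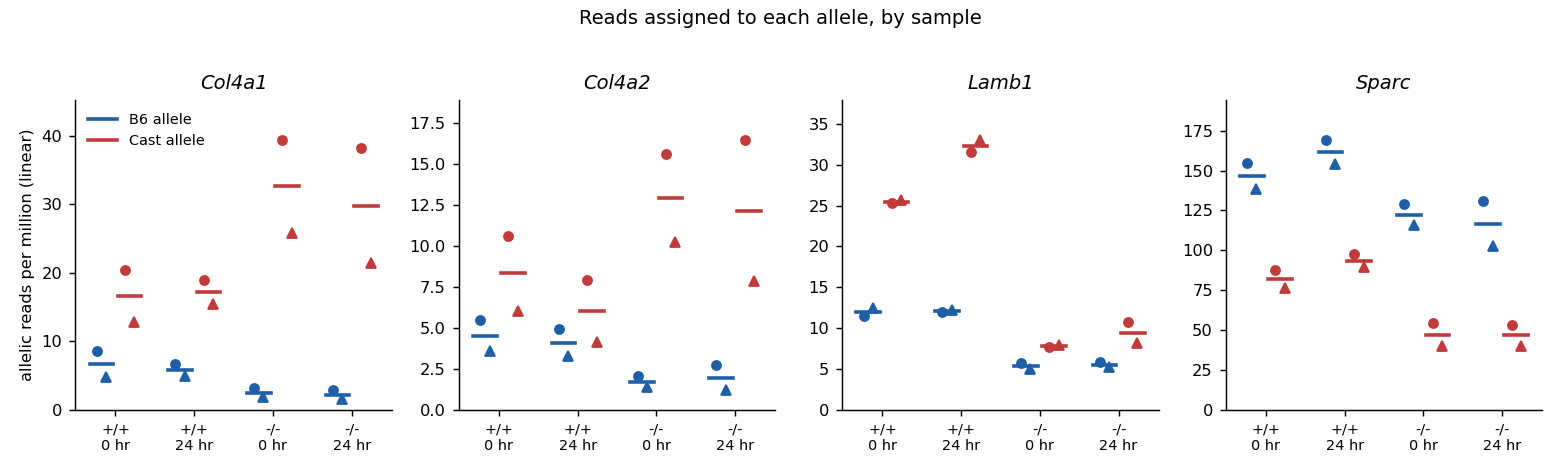
Allelic reads in CPM (TMM-scaled, linear axis) on the B6 allele (blue) and the Cast allele (red) for Col4a1, Col4a2, Lamb1 and Sparc, with 1 point a sample (circle 1, triangle 2) and lines at the means of 2 samples. For Col4a1 the B6 mean lies at 0.365 times and the Cast mean at 1.97 times the Hdac3+/+ mean at 0 hr, whereas both alleles of Lamb1 are lower.

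The genes around the pair were examined in the same test. Within 1 Mb of the start of Col4a2, 6 further genes reached 10 allelic reads in all 8 samples, and 0 of them passed the test (edgeR; within 5 Mb, 0 of 28). With 0.667% of all 9595 genes called, a count of 0 among so few genes does not set them apart from other genes. Irs2, an insulin receptor substrate whose gene lies on the Col4a1 side, had a log2 difference of -0.13 ± 0.25 (SE), with d-scores of 0.459 to 0.564 in Hdac3+/+ and 0.474 to 0.516 in Hdac3-/-. On the Col4a2 side, the nearest gene, Naxd, had -0.70 ± 0.45 (adjusted p = 0.715) on only 31 to 71 allelic reads. Cars2, a mitochondrial cysteinyl-tRNA synthetase, had 0.08 ± 0.34, and Ing1, a chromatin reader, had 0.03 ± 0.15. Ankrd10 had -0.21 ± 0.24 and Arhgef7, an exchange factor for small GTPases, had -0.13 ± 0.24. Across 516 genes of chromosome 8 other than the pair, the median d-score was 0.522 to 0.529 in Hdac3+/+ and 0.509 to 0.515 in Hdac3-/- samples.

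**Figure D3:**
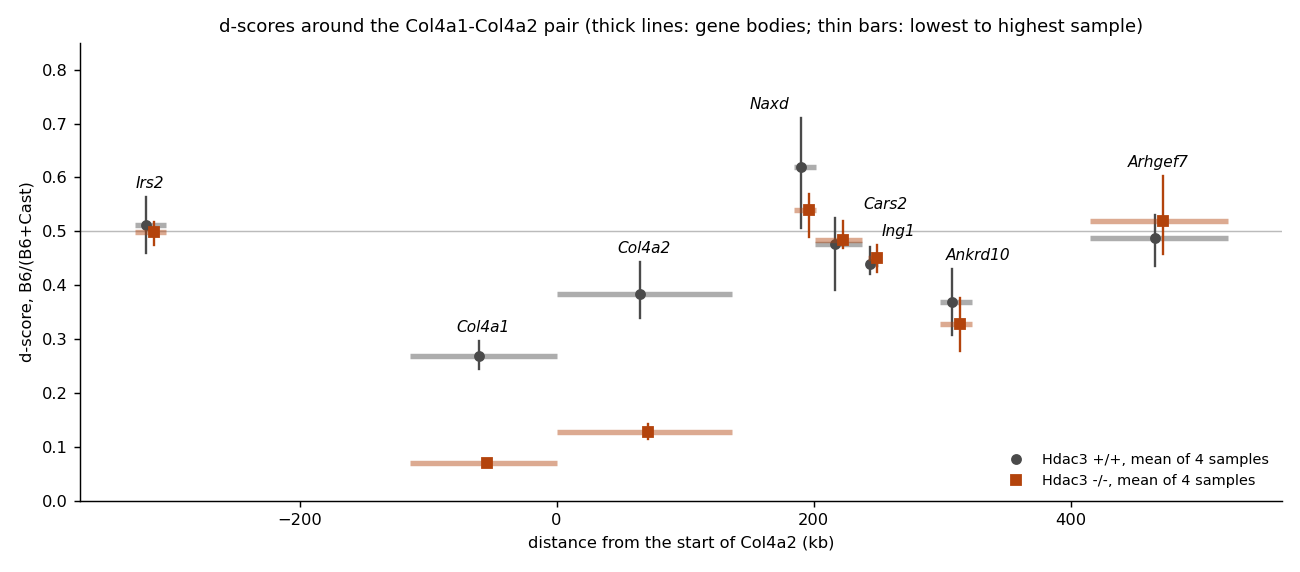
d-scores of the 8 genes with enough allelic reads around the Col4a1-Col4a2 pair, against distance in kb from the start of Col4a2 (thick lines are gene bodies, symbols are means of 4 samples, thin bars run from the lowest to the highest sample). The genotypes are apart at Col4a1 and Col4a2 and overlap at the 6 neighbours.

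Among 6258 other genes that reached 50 allelic reads in all 8 samples, 5 had the smallest root mean square distance to Col4a2 in d-score relative to their Hdac3+/+ mean over the 8 samples. They were Aldh1l1 (distance 0.0598), Emb (0.0651), Pinx1 (0.0657), Tex15 (0.0687) and Sall1 (0.0693). Col4a1 was closer than any of these, at 0.0572. Emb, a membrane glycoprotein gene on chromosome 13, went from d-scores of 0.322 to 0.451 in Hdac3+/+ to 0.171 to 0.220 in Hdac3-/-. Tex15 and Sall1 lie on chromosome 8, both more than 5 Mb from the start of Col4a2, and the other 2 lie on chromosomes 6 and 14. In log2 CPM over the 8 samples, the genes nearest to Col4a2 by Pearson's r among 13962 were Mapkbp1 (0.976), Sox4 (0.976), Krcc1 (0.969), Hpcal1 (0.968) and Klhl26 (0.966), and Col4a1 ranked 53rd with 0.929. These likenesses share the 8 libraries and are a description.

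Among the laminin chains, Lamb1 showed the deepest loss. Lamb1 had 61.4 and 65.8 CPM in Hdac3+/+ at 0 hr, then 68.7 and 73.4 at 24 hr. The clones had 21.5 and 19.6 without DOX, then 26.7 and 23.1 after 24 hr. Every knockout sample thus held less than the lowest Hdac3+/+ sample, and the replicates lay close together. The log2 fold change at 0 hr was -1.63 ± 0.13 (SE; edgeR adjusted p = 0.000652), and Lamb1 passed under all 10 refits with other settings or without 1 sample, with -1.70 to -1.56 and an adjusted p of at most 0.00875. At 24 hr, the log2 ratio of the group means, given without a test, was -1.51.

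Both alleles of Lamb1 were lower. At 0 hr the Hdac3-/- mean was 0.447 times the Hdac3+/+ mean on the B6 allele and 0.308 times on the Cast allele. The d-score was 0.313 and 0.327 in Hdac3+/+ at 0 hr, then 0.276 and 0.270 at 24 hr. In the Hdac3-/- samples it was 0.424 and 0.388, then 0.351 and 0.391. The genotypes did not overlap, but the difference in log2 B6:Cast, 0.56 ± 0.19 (SE), had an edgeR adjusted p of 0.345.

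The partner chains moved less. Lama1, which carries the cell-binding domains of laminin-111, had 198 and 205 CPM in Hdac3+/+ and 172 and 144 in Hdac3-/- at 0 hr, with a log2 fold change of -0.35 ± 0.11 (SE; edgeR adjusted p = 0.0716). Lamc1, the gamma chain of most laminins, had 574 and 598 against 469 and 501 CPM, with -0.27 ± 0.08 (adjusted p = 0.0740). Neither passed the threshold, although Lama1 did under 3 and Lamc1 under 4 of 10 refits. In TPM the chains were far from equal, with Lamc1 at 11.2 and 10.9 times Lamb1 in the Hdac3+/+ samples at 0 hr and at 26.1 and 30.7 times in the Hdac3-/- samples. The ratio of Lamc1 to Lama1 was 3.39 and 3.40 against 3.19 and 4.06 in the same samples. Lama1 also favoured the Cast allele, with d-scores of 0.248 to 0.273 in Hdac3+/+ and 0.214 to 0.241 in Hdac3-/- over both times, and its log2 difference at 0 hr was -0.24 ± 0.10 (adjusted p = 0.471). For Lamc1 the d-scores overlapped, at 0.521 to 0.545 and 0.540 to 0.562.

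Of the linkers, Hspg2 (perlecan, a heparan sulfate proteoglycan that binds laminin, nidogens and growth factors) rose. Its CPM was 991 and 858 in Hdac3+/+ at 0 hr, then 729.0 in both samples at 24 hr. Hdac3-/- samples had 1347 and 1138 before and 1401 and 1051 after DOX. All knockout samples exceeded all Hdac3+/+ samples. The log2 fold change at 0 hr was 0.43 ± 0.11 (SE; edgeR adjusted p = 0.0407), and the call was lost when either Hdac3+/+ sample was left out (adjusted p = 0.104 without sample 1 and 0.277 without sample 2) and with all 8 samples in 1 fit (0.0725). Its d-scores, 0.481 to 0.509 in Hdac3+/+ and 0.529 to 0.546 in Hdac3-/-, were apart by a narrow margin. The log2 difference at 0 hr of 0.21 ± 0.06 had an edgeR adjusted p of 0.202. Hspg2 lies on chromosome 4. The median d-score of 651 other genes there was also apart, at 0.485 to 0.492 in Hdac3+/+ and 0.502 to 0.509 in Hdac3-/-. The part of this wider difference in that of Hspg2 was not tested.

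The nidogens, which bridge laminin and collagen IV, did not pass. Nid2 was even in Hdac3+/+ (501 and 510 CPM at 0 hr, 515 and 513 at 24 hr) and lower in Hdac3-/-, where the samples spread from 319 to 428 CPM at 0 hr and from 318 to 391 at 24 hr. Its log2 fold change at 0 hr was -0.44 ± 0.13 (SE; edgeR adjusted p = 0.0708), which DESeq2 placed under the threshold (adjusted p = 0.0211), as did the fit without the low-count filter (0.000271). Nid2 was at -0.24 and -0.66 without Hdac3-/- sample 1 or 2, and at -0.46 and -0.43 without Hdac3+/+ sample 1 or 2. Nid1 had 390 and 300 CPM in Hdac3+/+ and 298 and 288 in Hdac3-/- at 0 hr, with -0.23 ± 0.13 (adjusted p = 0.258). The d-score of Nid1 leaned to B6, at 0.644 to 0.697 in Hdac3+/+, higher than for 93.9% of all genes, and at 0.612 to 0.684 in Hdac3-/-. In each of the 4 groups its sample numbered 2 had the higher share, and the gap between the 2 samples of a group was wider than that between the genotype means at either time. Nid2 shares were 0.460 to 0.487 in Hdac3+/+ and 0.498 to 0.525 in Hdac3-/-, with a log2 difference of 0.30 ± 0.07 at 0 hr (adjusted p = 0.0911).

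Sparc, a secreted glycoprotein that binds collagen IV and helps its assembly, fell in level and shifted toward B6. It had 334 and 296 CPM in Hdac3+/+ at 0 hr, then 378 and 325 at 24 hr. The clones had 252 and 208 without DOX, then 250 and 196 after 24 hr. The genotypes did not overlap, and the log2 fold change at 0 hr was -0.45 ± 0.12 (SE; edgeR adjusted p = 0.0415). That call was lost without either Hdac3+/+ sample (adjusted p = 0.275 without sample 1 and 0.120 without sample 2) and with all 8 samples in 1 fit (0.0612).

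The d-score of Sparc was 0.638 and 0.645 in Hdac3+/+ at 0 hr, then 0.634 and 0.633 at 24 hr. In the Hdac3-/- samples it was 0.704 and 0.743, then 0.711 and 0.719. The log2 B6:Cast ratio at 0 hr was thus higher in Hdac3-/- by 0.54 ± 0.09 (SE; edgeR adjusted p = 0.00673). Leaving out an Hdac3+/+ sample at 0 hr raised the adjusted p to 0.141 (sample 1) or 0.103 (sample 2), and DESeq2 did not call it (adjusted p = 1). Both alleles had fewer reads in Hdac3-/-, with 0.835 times the Hdac3+/+ mean on the B6 allele and 0.576 times on the Cast allele at 0 hr. Sparc thus moved to the allele opposite to that of the collagen IV pair.

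Fn1, the fibronectin gene and the most highly expressed of the 10, overlapped between the genotypes. Its CPM was 3521 and 2983 in Hdac3+/+ and 3016 and 3530 in Hdac3-/- at 0 hr, a log2 fold change of 0.01 ± 0.11 (SE; edgeR adjusted p = 0.962). Its d-score was 0.477 to 0.491 in Hdac3+/+ and 0.465 to 0.502 in Hdac3-/-. The Hdac3-/- samples numbered 1 had 0.502 and 0.501 and those numbered 2 had 0.465 and 0.467, on 19558 to 27170 allelic reads.

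**Figure D4:**
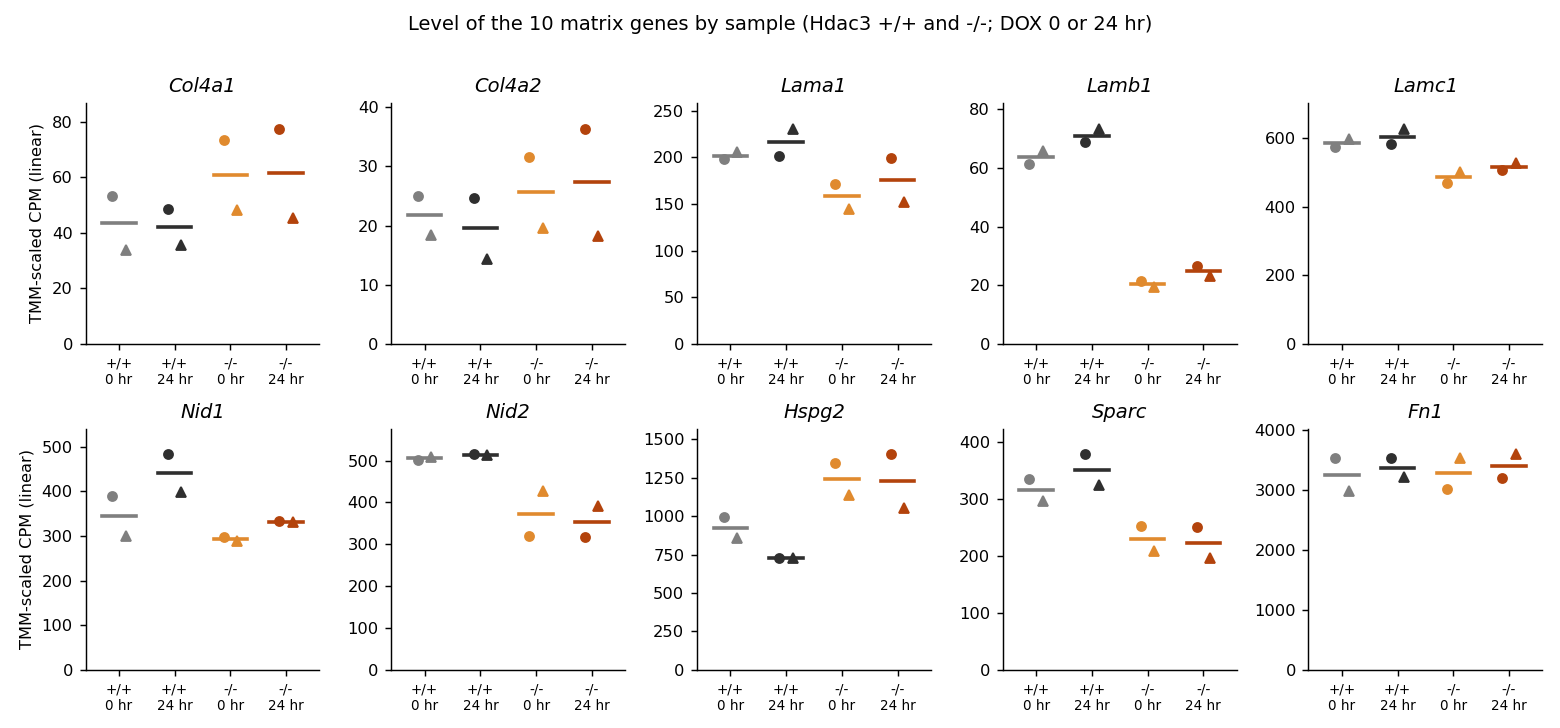
TMM-scaled CPM (linear axes from 0) of the 10 genes in every sample (circles are samples numbered 1, triangles samples numbered 2), with lines at the means of 2 samples, by genotype and hours of DOX. Lamb1 drops from 61.4 to 73.4 CPM in Hdac3+/+ to 19.6 to 26.7 CPM in Hdac3-/-, Hspg2 is higher in Hdac3-/-, and Fn1 overlaps.

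Counted together at 0 hr, 1 of the 9 genes tested rose in total level in Hdac3-/- (Hspg2) and 2 fell (Lamb1 and Sparc). Over all 13381 genes tested, 13.5% were called, 6.3% as higher and 7.17% as lower. With a term for the replicate number in the fit (last paragraph), 7 of the 9 genes and 3117 of the 13381 were called. The median log2 fold change of the 9 genes was -0.27, against 0.003 for all genes. In allele ratio, 1 of the 9 genes was called with a higher B6 share (Sparc) and 1 with a lower one (Col4a1). Col4a1 shares its start and its samples with Col4a2, so its call is not independent of the choice of genes. The Sparc call was lost under DESeq2. Over all 9595 genes, 0.667% were called, 0.313% as higher and 0.354% as lower. Over both times, the d-scores of the 4 Hdac3+/+ and the 4 Hdac3-/- samples did not overlap for 7 of the 10 genes, 4 of them higher and 3 lower in Hdac3-/-, and for 7.45% of all genes. These 7 include Col4a2, which the choice of genes fixes, and Col4a1, which shares its start. The median d-scores of chromosomes 4 and 8, which hold Hspg2 and the collagen IV pair, were apart as well. The 10 genes also differ from most in depth, since the least covered sample of each had 52 to 12235 allelic reads against a median of 84 over all genes. In CPM, 5 of the 10 genes did not overlap (Hspg2 higher, and Lamb1, Lamc1, Nid2 and Sparc lower), against 32.8% of 13963 genes.

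**Figure D5:**
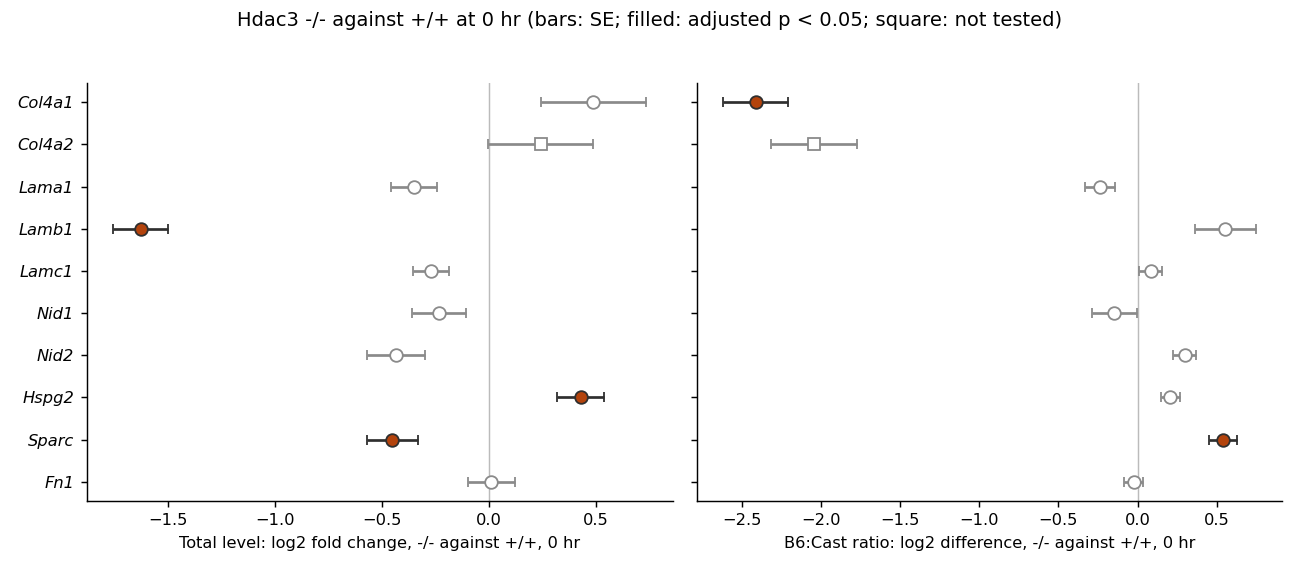
Difference between Hdac3-/- and Hdac3+/+ at 0 hr for the 10 genes, as the log2 fold change of the total level (left) and the difference in log2 B6:Cast ratio (right), with bars of 1 SE. Filled points passed an edgeR adjusted p of 0.05 over all genes tested, open circles did not, and squares mark Col4a2, which was not tested. Lamb1 lies at -1.63 on the left and Col4a1 at -2.41 on the right.

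In level per exon length, the order in Hdac3+/+ at 0 hr ran from Fn1 (1031 ± 161 TPM; SD, n = 2 throughout) through Nid2 (361 ± 9.5), Sparc (308 ± 38.5), Lamc1 (261 ± 2.8), Hspg2 (239 ± 33.8), Nid1 (184 ± 41.2), Lama1 (77.0 ± 1.1), Lamb1 (23.7 ± 0.24) and Col4a1 (21.7 ± 7.6) to Col4a2 (12.2 ± 3.1). The samples of Lamc1 and Hspg2 overlapped, as did those of Lamb1 and Col4a1. In Hdac3-/- at 0 hr, Hspg2 (302 ± 38.8 TPM) stood second and Lamb1 (7.20 ± 0.55 TPM) last. There, Hspg2 and Nid2, Nid2 and Sparc, and Sparc and Lamc1 overlapped in the order.

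After 24 hr of DOX, 0 of the 10 genes passed the test in Hdac3+/+ cells, in Hdac3-/- cells or in the difference between the genotypes, in total level or in allele ratio (edgeR; DESeq2 and, for totals, limma also called 0). Over all genes, the totals test called 0.208% in Hdac3+/+, 0.0215% in Hdac3-/- and 0% for the difference, and the allele ratio test called 1.61%, 0.406% and 0.208%. Adjusted over the 8947 autosomal genes outside chromosome 16, a set that holds all 10 genes, the allele ratio test called 0 in each. At an unadjusted p under 0.05, there were 2 of the 10 genes in Hdac3+/+ totals, where 7.26% of all genes were under it, and 0 in each of the other 5 tests, where 1.88% to 5.46% were. Nid1 had a log2 fold change of 0.35 ± 0.13 (SE; edgeR adjusted p = 0.552) and Hspg2 of -0.35 ± 0.14 (adjusted p = 0.618). Without the low-count filter both passed in Hdac3+/+. These fits did not pair samples by number. With a term for the replicate number (last paragraph), totals of Hspg2, Sparc and Nid1 were called in Hdac3+/+, Nid1 in Hdac3-/- and Hspg2 for the difference. Hspg2 was at 0.33 ± 0.19 for the difference between the genotypes in its change with DOX (adjusted p = 1). In Hdac3+/+, the d-scores at 24 hr lay below those at 0 hr in both samples for 5 of the 10 genes and above for 2. In Hdac3-/- they lay below for 1, Lama1, and above for 1, Col4a2, both of which went the same way in Hdac3+/+. Col4a2 changed by log2 0.31 ± 0.28 in Hdac3+/+ and 0.30 ± 0.31 in Hdac3-/- (edgeR adjusted p = 1 in each). With 2 samples against 2, such separation can arise from noise alone, and its share over all genes was not counted.

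Other genes of the same matrix were examined in 4 lists, whose counts are to be read against the 6.3% of all genes called as higher and the 7.17% called as lower. Of 29 further basement membrane components, 14 were tested, of which 0 rose and 3 fell at 0 hr, with a median log2 fold change of -0.35. Fbln2 (a fibulin) fell by 1.26 ± 0.33 on the log2 scale (SE; edgeR adjusted p = 0.0428), Ntn1 (netrin-1, a laminin-related guidance cue) by 0.90 ± 0.13 (0.00514) and Lamb2, the other laminin beta chain these cells use, by 0.65 ± 0.15 (0.0274). The 2 most expressed members, Lama5 and Col18a1, were at -0.08 ± 0.08 (adjusted p = 0.569) and -0.13 ± 0.17 (0.653). Col4a3 and Col4a4, 2 of the other collagen IV chains, had at most 3 reads in any library. Of the 14 genes of this list with allele ratios, 1 was called, Agrn (agrin), toward B6 by log2 0.47 (edgeR adjusted p = 0.0107). Agrn lies on chromosome 4, whose median d-score also moved toward B6.

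Of 22 genes for collagen folding, cross-linking and heparan sulfate synthesis, 20 were tested, 1 rose and 3 fell (median -0.09). Loxl3, a lysyl oxidase that cross-links collagen, rose by log2 3.41 ± 0.61 (SE; edgeR adjusted p = 0.0114) from 0.225 and 0.332 to 4.07 and 1.88 CPM. Mia3, which loads collagen into transport carriers, fell by 1.09 ± 0.11 (0.00192), the collagen chaperone Serpinh1 by 0.50 ± 0.12 (0.0312) and the collagen galactosyltransferase Colgalt1 by 0.43 ± 0.11 (0.0414). P4hb, a subunit of prolyl 4-hydroxylase, was at 0.02 ± 0.12 (0.942).

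Of 26 matrix receptors and their adaptors, 21 were tested, 5 rose and 3 fell (median -0.04). Itga5, the alpha chain of the main fibronectin receptor, rose by log2 1.54 ± 0.20 (SE; edgeR adjusted p = 0.00373), from 27.6 and 18.99 to 76.8 and 59.01 CPM. Parva rose by 1.23 ± 0.34 (0.0494), the heparan sulfate proteoglycan Sdc4 by 1.20 ± 0.15 (0.00291) and Itga3, which pairs in a laminin receptor, by 0.75 ± 0.17 (0.0291). Itgb1, the beta chain shared by most of these integrins, fell by 0.62 ± 0.09 (0.00600), and dystroglycan (Dag1) was at 0.33 ± 0.09 (0.0598).

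Of 14 proteases and inhibitors of matrix turnover, 9 were tested, 0 rose and 2 fell (median -0.43; edgeR). Adamts9, a secreted metalloprotease, fell by log2 1.38 ± 0.17 (SE; adjusted p = 0.00286) and Mmp15, a membrane-bound matrix metalloprotease, by 0.90 ± 0.23 (0.0418). The most expressed members, Timp1 and Htra1, were at -0.16 ± 0.13 (0.480) and -0.40 ± 0.12 (0.0580).

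Markers of other cell types were summed in each sample, since endoderm makes several of these genes in bulk. The genes named in brackets are the highest of each list in TPM. Naive pluripotency markers (Nanog, Pou5f1 and Sox2 highest) summed to 4750 to 5072 CPM in the 4 Hdac3+/+ samples and 5954 to 6281 in the 4 Hdac3-/- samples. Of these 9 genes, 3 were called as higher at 0 hr, namely Nanog, Tbx3 and Zfp42, and 1 as lower. The lower gene, Dppa3, went from 76.4 and 71.5 to 15.0 and 17.1 CPM (edgeR adjusted p = 0.0003255). Primitive endoderm markers were low, at 13.2 to 15.4 and 16.03 to 28.7 CPM for 7 genes (Dab2, Sox7 and Gata4 being highest), with Foxa2 at 0 to 4 reads. Within this list, Dab2 rose at 0 hr, from 7.04 and 7.05 to 11.8 and 18.8 CPM (log2 1.11 ± 0.26, SE; edgeR adjusted p = 0.0286), while Sox7 fell (-1.67 ± 0.45; 0.0472) and Sox17 was at 1.05 and 0.829 against 0.179 and 0.0855 CPM. Parietal endoderm markers summed to 20.7 to 26.7 and 26.3 to 27.1 CPM for 7 genes (Snai1, Srgn and Fst highest). Visceral endoderm markers (Rhox5, Hnf4a and Apoa1 highest) summed to 103 to 140 and 360 to 444 CPM, almost all from the X-linked Rhox5. Afp had at most 4 reads and Ttr was at 0 in all samples. Of the 2 visceral endoderm genes tested, Rhox5 was called as higher at 0 hr. The other, Hnf4a, went from 4.19 and 7.96 to 16.1 and 10.1 CPM (log2 1.13 ± 0.34, SE; edgeR adjusted p = 0.0686). Fibroblast markers (Thy1, Col1a1 and Pdgfrb highest) summed to 47.2 to 65.3 and 47.3 to 68.0 CPM, with Col3a1 and Postn at most at 1 read. Within this list, Pdgfrb rose at 0 hr from 2.99 and 3.73 to 25.2 and 19.8 CPM, by log2 2.75 ± 0.23 (SE) with an edgeR adjusted p of 0.000769. Of the 4 fibroblast markers tested, Pdgfrb alone was called and alone had a positive log2 fold change. Primed epiblast markers (Dnmt3b, Dnmt3a and Lef1 highest) summed to 333 to 360 and 244 to 249 CPM, trophoblast markers (Tfap2c, Cdx2 and Eomes) to 66.3 to 109 and 63.0 to 76.0, and mesendoderm markers (T, Eomes and Mixl1) to 37.5 to 77.0 and 45.7 to 81.4. The naive, primitive endoderm, visceral endoderm and primed sums thus separated the genotypes, as did the CPM of 32.8% of 13963 genes. The part of these markers in the matrix gene differences was not tested.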

How the data were processed

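RNA-seq of 8 samples was measured as read counts per gene. The authors removed rRNA reads and aligned the rest with TopHat2 2.1.0 and counted strand-specific read pairs over exons with featureCounts 1.5.1 (mm10, per the labels). The rRNA precursor gene Rn45s still held 7.03% to 8.31% of the reads on genes in each library. The deposited tables give, for each of 24542 symbols, whole-number counts of all reads and of reads assigned to the B6 and the Cast allele, and the fraction of allelic reads that are B6 (the authors' d-score, which was recomputed here from the counts). How the authors assigned reads to alleles can favour one genome, and this was not tested.

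Symbols were matched to GENCODE M21 (24153 matched) for positions and exon lengths. Total counts were tested with edgeR 4.0.16 (R 4.3.3), TMM, quasi-likelihood, on genes above 1 TPM in 2 samples or more, using the 4 samples at 0 hr for the genotype (2 residual degrees of freedom) and all 8 for DOX. B6:Cast ratios were tested in the same way on 16 columns, with a term per sample and a B6 term per group, on genes with at least 10 allelic reads in all 8 samples. P-values were adjusted (Benjamini-Hochberg) over all genes of each test and called at 0.05. Nothing in the labels says that the duplicates are separate cultures, so p-values measure the spread between these samples. Duplicates differed by more than sampling noise in every group. The chi-square per degree of freedom at 0 and 24 hr was 6.01 and 3.73 in Hdac3+/+ and 12.06 and 11.24 in Hdac3-/-. Where leaving out a sample left 1 in a group, it was assumed to vary like the others. Genotype fits of totals without an Hdac3-/- sample thus took their spread from the Hdac3+/+ duplicates alone, which does not measure differences between clones. DESeq2 1.42.0 and limma 3.58.1 (voom) were alternatives. The genotype tests at 0 hr, in total level and in allele ratio, were run on simulated data first. The DOX and interaction tests and the alternatives were not. No row without a gene name entered the tests.

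The members and lists were chosen with earlier results of these data known. The genes named are the 10 members, Hdac3, genes with allelic reads starting within 1 Mb of Col4a2, the 5 nearest to Col4a2 in d-score and in level, up to 4 called genes with the largest change and the 2 most expressed of each pathway list, and the 3 most expressed of each cell type list. Genes named for having few or no reads, and Agrn, Sox17, Tbx3, Zfp42 and Dppa3, were chosen after their values were seen. The primitive endoderm list was summed without 1 gene, which is not reported here.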

Additional observations from a re-analysis of the deposited data

How the results depend on the processing

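Precision is limited by 2 samples a group. Among alternatives other than leaving out a sample, the 1802 genes called between genotypes in total level became 3107 without the low-count filter and 822 with an absolute log2 fold change above 1. The 64 called in allele ratio became 6 under DESeq2. The 29 called with DOX in Hdac3+/+ totals became 116 (DESeq2), 12 (limma), 275 (no filter) and 7 (fold above 1), the 3 in Hdac3-/- became 15 (DESeq2) and 36 (no filter), and the 0 for the interaction became 1 and 6. In allele ratio with DOX, DESeq2 called 88, 7 and 0 genes (Hdac3+/+, Hdac3-/-, interaction) in place of 154, 39 and 20. Adjusting over autosomal genes without chromosome 16 called 0 in each. This leaves out the X, and also chromosome 16, where 1 clone differed from the other samples. The median d-score of 305 X genes went from 0.497 and 0.502 to 0.286 and 0.278 with DOX in Hdac3+/+. In Hdac3-/- it went from 0.504 and 0.483 to 0.404 and 0.395. Leaving out 1 sample gave 343 to 3381 and 2 to 84 calls (totals, genotype and DOX in Hdac3+/+), and 12 to 121, 83 to 158 and 3 to 21 (allele ratio, genotype, DOX in Hdac3+/+ and interaction). Totals called 343 and 357 genes between genotypes without Hdac3+/+ sample 1 or 2 at 0 hr and 3381 and 3037 without Hdac3-/- sample 1 or 2. DOX in Hdac3+/+ totals called 2 or 3 genes without any of the Hdac3+/+ samples and 50 to 84 without any of the Hdac3-/- samples. The allele ratio called 12, 15, 42 and 121 genes between genotypes without Hdac3+/+ sample 1 or 2 at 0 hr, sample 2 at 24 hr and Hdac3-/- sample 1 at 0 hr, 83 with DOX without Hdac3+/+ sample 1 at 24 hr, and for the interaction 3 to 8 without an Hdac3+/+ sample and 13 without Hdac3-/- sample 1 at 24 hr. The causes were not tested. Of the members, Fn1, Col4a2 and Nid1 changed sign. With 1 sample left out, the total log2 fold change ranged from -0.11 to 0.12 for Fn1 and from -0.15 to 0.54 for Col4a2, and the allele difference from -0.364 to 0.0943 for Nid1 and from -0.130 to 0.0826 for Fn1. As a log2 ratio of means, Fn1 went from 0.0093 to -0.0703 in unscaled CPM and -0.0839 in TPM, Lamb1 was -1.72 in TPM and Lamc1 -0.35 in unscaled CPM and -0.36 in TPM.

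The labels do not say what a replicate number marks. On chromosome 16, the median d-score of 314 genes was 0.333 at both times in the Hdac3-/- samples numbered 1. In the Hdac3-/- samples numbered 2 it was 0.5 at 0 hr and 0.493 at 24 hr. Same-numbered Hdac3-/- samples thus matched each other there, as samples of 1 clone would. The main DOX and interaction fits did not pair them. The replicate block raised the totals calls to 3117 of 13381 genes between genotypes. Of 13963 genes, it called 1555 and 283 with DOX in Hdac3+/+ and Hdac3-/-, and 279 for the interaction. In allele ratio, of 9595 genes, it called 109 between genotypes, 90 with DOX in Hdac3-/- and 70 for the interaction. Same-numbered samples had correlated total deviations (r of 0.591 between the Hdac3-/- times, 0.153 to 0.248 for other pairs of groups). With the block, 7 of 9 members were called between genotypes in total level, adding Col4a1, Lama1, Lamc1 and Nid2, and Nid2 was added in allele ratio. With DOX, Hspg2, Sparc and Nid1 were called in Hdac3+/+, Nid1 in Hdac3-/- and Hspg2 for the interaction.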
